A study of Mus musculus with 12 samples.

Results

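The 10 genes described here are targets of the transcription factor p53: Cdkn1a, Ccng1, Mdm2, Phlda3, Trp53inp1, Bax, Bbc3, Aen, Eda2r and Tnfrsf10b. They were listed by name as targets for cell cycle arrest, feedback and apoptosis. All 10 were found, by symbol, among the 32047 genes of a mouse kidney RNA sequencing table, and all 10 passed the filter on low counts. The table covers 12 libraries, 4 in each of 3 groups. The group AKI_A_FGF23_R176QR179Q, called the FGF23 variant group below, came from mice made to overexpress a form of the hormone FGF23 with the substitutions R176Q and R179Q, and then, 3 weeks on, given rhabdomyolysis, in which damaged skeletal muscle injures the kidney. The group AKI_A_mcherry carries in its name the injury and mCherry, a red fluorescent protein, and the group NC is not explained in the labels. No strain, age, sex, vector, promoter or time of kidney collection is given in the labels, nor whether each library is a mouse of its own, so p-values reflect the spread among libraries, which may be technical. No group with mCherry alone or with the variant alone was analysed here, so a difference between AKI_A_mcherry and NC covers the injury and whatever else separates them.

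p53 is kept low in unstressed cells because MDM2, one of its own targets, marks it for degradation. When DNA damage or other stress frees it, p53 binds DNA at a pair of half-sites and raises genes that halt the cell cycle, limit p53 itself or start cell death. In the kidney tubule this response is known to follow acute injury, with p21, the protein of Cdkn1a, as its best known output.

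The libraries held 55324078 to 70638283 counts. Fgf23 had 320 to 517 counts in the libraries of the FGF23 variant group and 0 in the 8 others. The injury marker Havcr1 averaged 1049 ± 489 CPM (CPM is the count scaled by library size and by a TMM factor) in the FGF23 variant group, 2813 ± 746.5 CPM in AKI_A_mcherry and 3.265 ± 1.23 CPM in NC (SD, n = 4 each). Of the 10 markers of kidney epithelium, such as Lrp2, Umod and Nphs1, none was at 0 in any group, and their summed level was 7616 to 9735 CPM in the FGF23 variant group, 5081 to 5468 CPM in AKI_A_mcherry and 14610 to 16230 CPM in NC. The summed level of 13 leukocyte markers was 73.9 to 100.3 CPM in the FGF23 variant group, 94.0 to 210.2 CPM in AKI_A_mcherry (with Ms4a1 at 0 in all its libraries) and 117.5 to 158.8 CPM in NC. Single leukocyte markers moved in opposite directions. In AKI_A_mcherry over NC, 4 of 10 tested were higher (S100a8, Cd68, S100a9 and Itgam) and 5 lower (edgeR adjusted p below 0.05). The 5 were Cd3e, Nkg7, Csf1r, Adgre1 and Ptprc, and over all genes tested 27.2% were higher and 26.0% lower. In the FGF23 variant group over NC, 4 of 10 were higher and 4 lower, against 21.7% and 20.6% of all genes tested. For 8 stroma and endothelium markers the summed level was 555 to 637 CPM in the FGF23 variant group, 390.4 to 654 CPM in AKI_A_mcherry and 314.5 to 435 CPM in NC, and for 11 markers of other tissues 13.5 to 38.0, 16.3 to 94.7 and 17.4 to 62.7 CPM in these groups, with Cyp11b1 at 0 in the FGF23 variant group and NC. The share of counts from mitochondrial genes was 10.9 to 13.1% for FGF23 variant libraries, below all libraries of AKI_A_mcherry (13.8 to 17.1%) and of NC (15.3 to 16.9%). The part of these shifts in cell markers and in mitochondrial share in the results below was not tested. In whole tissue, more cells of a type and more RNA per cell cannot be told apart.

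To show which members carry letters of the p53 site near their starts, RefSeq promoter windows (mouse build GRCm38.p6, 250 bases before to 50 after each start) were searched for the p53 half-site consensus. The consensus reads the same on both strands and is 10 bases long. Windows were found for 8 of the 10 members, all but Trp53inp1 and Tnfrsf10b, with 12 windows in all. An exact half-site was in 6 of these 12 windows, from Cdkn1a, Ccng1, Mdm2, Bax and Aen (5 of 8 members), against 8.36% of all 32851 windows. The same Aen site counts in both of its overlapping windows. A pair of half-sites was searched for with at most 1 mismatch in all and a spacer of at most 13 bases. Such a pair was in 3 of these 12 windows, against 1.09% of all windows. Those 3 windows are shown because their genes, Cdkn1a, Ccng1 and Bax, hold the same kind of site and differed widely in the kidneys. Capitals mark the half-sites, exact or with the 1 mismatch.
Cdkn1a, chr17:29090729-29091028, plus strand: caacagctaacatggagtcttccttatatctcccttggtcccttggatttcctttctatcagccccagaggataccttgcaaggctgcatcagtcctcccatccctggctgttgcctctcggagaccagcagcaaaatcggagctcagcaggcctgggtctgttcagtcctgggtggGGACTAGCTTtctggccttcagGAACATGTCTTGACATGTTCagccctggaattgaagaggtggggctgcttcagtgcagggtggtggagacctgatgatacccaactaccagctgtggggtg
Ccng1, chr11:40755237-40755536, minus strand: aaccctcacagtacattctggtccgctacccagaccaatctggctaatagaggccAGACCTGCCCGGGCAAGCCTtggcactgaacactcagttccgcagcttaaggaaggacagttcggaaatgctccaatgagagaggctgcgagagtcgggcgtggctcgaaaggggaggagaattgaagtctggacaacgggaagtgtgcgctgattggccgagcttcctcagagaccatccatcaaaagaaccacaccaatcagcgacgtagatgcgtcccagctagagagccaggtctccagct
Bax, chr7:45466849-45467148, minus strand: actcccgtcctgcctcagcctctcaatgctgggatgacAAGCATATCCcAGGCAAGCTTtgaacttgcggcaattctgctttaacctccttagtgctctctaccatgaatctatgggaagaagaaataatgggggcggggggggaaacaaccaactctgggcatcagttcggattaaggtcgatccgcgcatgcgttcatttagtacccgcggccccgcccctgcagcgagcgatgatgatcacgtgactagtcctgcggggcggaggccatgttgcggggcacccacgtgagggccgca

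Cdkn1a had 2 windows. The one shown held 3 half-sites. The other, chr17:29093519-29093818, lay downstream of it on the same strand without overlap and held no exact half-site. Which of these starts the measured Cdkn1a RNA came from was not tested. The exact pair, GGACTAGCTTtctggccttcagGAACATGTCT, had a spacer of 12 bases, and a pair with no spacer and 1 mismatch, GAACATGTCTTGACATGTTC, shared its second half-site. The pair of Ccng1 had no spacer and 1 mismatch, and that of Bax a spacer of 1 base and 1 mismatch. For Mdm2 and Aen a single exact half-site was found, shown with 10 bases on each side. That of Mdm2 lay in the window chr10:117710709-117711008 on the minus strand, and that of Aen in the window chr7:78895808-78896107 on the plus strand and in another window of Aen that overlaps it.
Mdm2: agtcggatagGAACTTGCCTagcgaccatt
Aen: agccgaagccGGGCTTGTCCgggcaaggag
The windows of Phlda3, Bbc3 and Eda2r held no exact half-site, which says only that these letters are not in them. A match is a description of the letters and not a bound site, and the windows carry no measure of p53 binding. The members were listed as p53 targets, so their shares above those of all windows are no separate evidence of p53 action.

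**Figure D1:**
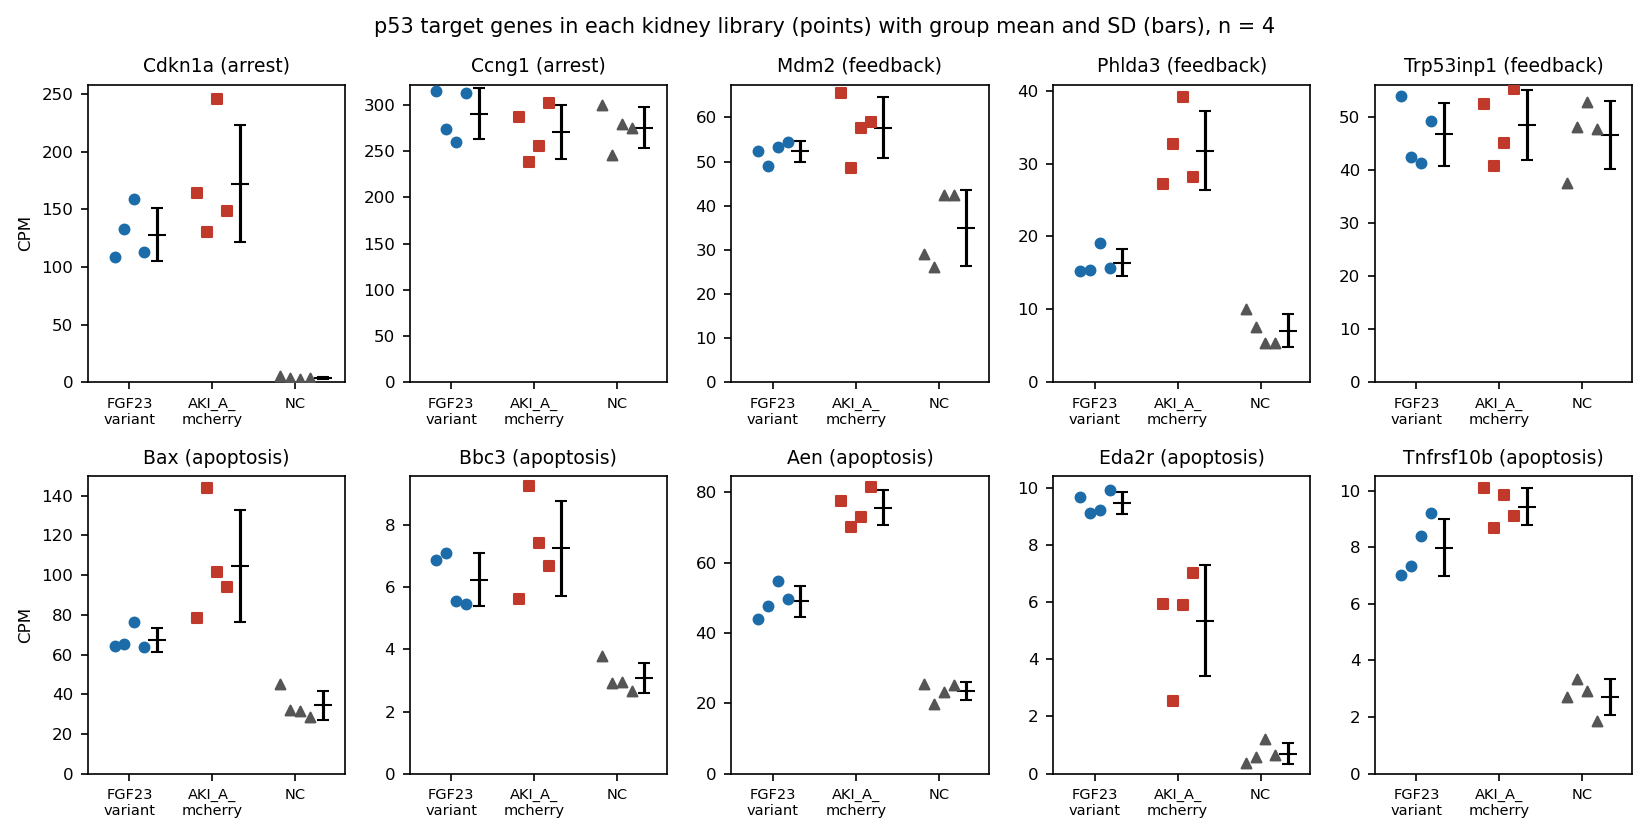
Each panel shows one p53 target gene, with CPM on the vertical axis and a point for each library of the FGF23 variant group, AKI_A_mcherry and NC, and bars for the mean and SD (n = 4). Cdkn1a lies at 2.89 to 5.10 CPM in NC and at over 100 CPM in all 8 injured libraries, Ccng1 and Trp53inp1 overlap in all groups, and all Eda2r libraries of the FGF23 variant group, at 9.10 to 9.93 CPM, lie above those of AKI_A_mcherry.

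The comparison of AKI_A_mcherry with NC asked how the injured kidney differed. Of the 10 p53 targets, 8 rose and 0 fell (edgeR quasi-likelihood test, Benjamini-Hochberg adjusted p below 0.05), against 27.2% of all 18724 genes tested that rose and 26.0% that fell. The same 8 had libraries that did not overlap between the groups, against 51.5% of all genes tested. The median log2 change of the members was 1.67, against -0.0026 for all genes tested, and Ccng1 and Trp53inp1 did not pass the test. Members and lists were chosen with earlier results of these data known, so here and below counts set beside all genes are descriptions.

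Cdkn1a, whose protein p21 blocks cyclin-dependent kinases, had 164, 130.4, 246 and 148.5 CPM in AKI_A_mcherry, against 5.10, 3.58, 2.89 and 3.49 CPM in NC. Every injured library was far above every NC library, and replicate 3 was the highest of AKI_A_mcherry. Cdkn1a rose 46.4-fold, which is 5.54 ± 0.25 on the log2 scale (SE, edgeR adjusted p = 9.92e-08). Ccng1, encoding cyclin G1, which brings a phosphatase to MDM2, had 287.5, 238, 255.5 and 302 CPM in AKI_A_mcherry, against 300.5, 246, 279 and 276 CPM in NC. The libraries of both groups lay in the same range, and the log2 difference was -0.0036 ± 0.11 (SE, edgeR adjusted p = 0.9805).

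Among the feedback genes, Mdm2 had 65.5, 48.6, 57.6 and 58.95 CPM in AKI_A_mcherry, against 29.1, 26.0, 42.4 and 42.3 CPM in NC. The groups did not overlap, but NC replicates 3 and 4 came close to the lowest injured library. Mdm2 rose 1.67-fold (log2 0.74 ± 0.17, SE, edgeR adjusted p = 0.00402). Phlda3, whose product competes with the survival kinase AKT for membrane lipids, had 27.1, 32.7, 39.1 and 28.2 CPM in AKI_A_mcherry, against 10.01, 7.57, 5.41 and 5.31 CPM in NC. All injured libraries were higher, a rise of 4.56-fold (log2 2.19 ± 0.21, SE, edgeR adjusted p = 1.32e-05). Trp53inp1, a stress protein that works with kinases acting on p53, had 52.5, 40.85, 45.2 and 55.3 CPM in AKI_A_mcherry, against 37.55, 48.2, 52.9 and 47.8 CPM in NC. Its groups overlapped, with a log2 difference of 0.08 ± 0.13 (SE, edgeR adjusted p = 0.655).

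All 5 apoptosis genes rose. Bax, whose product opens pores in the mitochondrial outer membrane, had 78.2, 144, 102 and 94.1 CPM in AKI_A_mcherry, against 45.2, 32.3, 31.55 and 28.4 CPM in NC. Replicate 2 was the highest injured library, and the lowest injured library was above every NC library. Bax rose 3.09-fold (log2 1.63 ± 0.20, SE, edgeR adjusted p = 7.32e-05). Bbc3, encoding PUMA, a BH3-only protein that sets BAX free, had 5.63, 9.25, 7.43 and 6.69 CPM in AKI_A_mcherry, against 3.79, 2.91, 2.94 and 2.66 CPM in NC. It stayed a low transcript in both groups and rose 2.39-fold (log2 1.26 ± 0.21, SE, edgeR adjusted p = 4.85e-04). Aen, a nuclease named for enhancing apoptosis, had 77.7, 70.2, 73.1 and 81.6 CPM in AKI_A_mcherry, against 25.6, 19.9, 23.2 and 25.1 CPM in NC. Its groups were tight and far apart, with a rise of 3.27-fold (log2 1.71 ± 0.11, SE, edgeR adjusted p = 5.25e-07).

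The remaining apoptosis members are receptors of the TNF receptor family. Eda2r, the receptor for the ectodysplasin form EDA-A2, had 5.94, 2.54, 5.89 and 7.00 CPM in AKI_A_mcherry, against 0.368, 0.597, 1.21 and 0.644 CPM in NC. AKI_A_mcherry replicate 2 was far below the other injured libraries, and the NC values rest on 20 to 74 counts a library. Eda2r rose 7.635-fold (log2 2.93 ± 0.42, SE, edgeR adjusted p = 1.80e-04). Tnfrsf10b, the mouse death receptor for the ligand TRAIL, had 10.1, 8.69, 9.85 and 9.08 CPM in AKI_A_mcherry, against 2.72, 3.35, 2.91 and 1.85 CPM in NC. The injured libraries lay close together and above all NC libraries, with a rise of 3.53-fold (log2 1.82 ± 0.20, SE, edgeR adjusted p = 2.95e-05). Leaving out any single library changed none of the 8 calls.

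**Figure D2:**
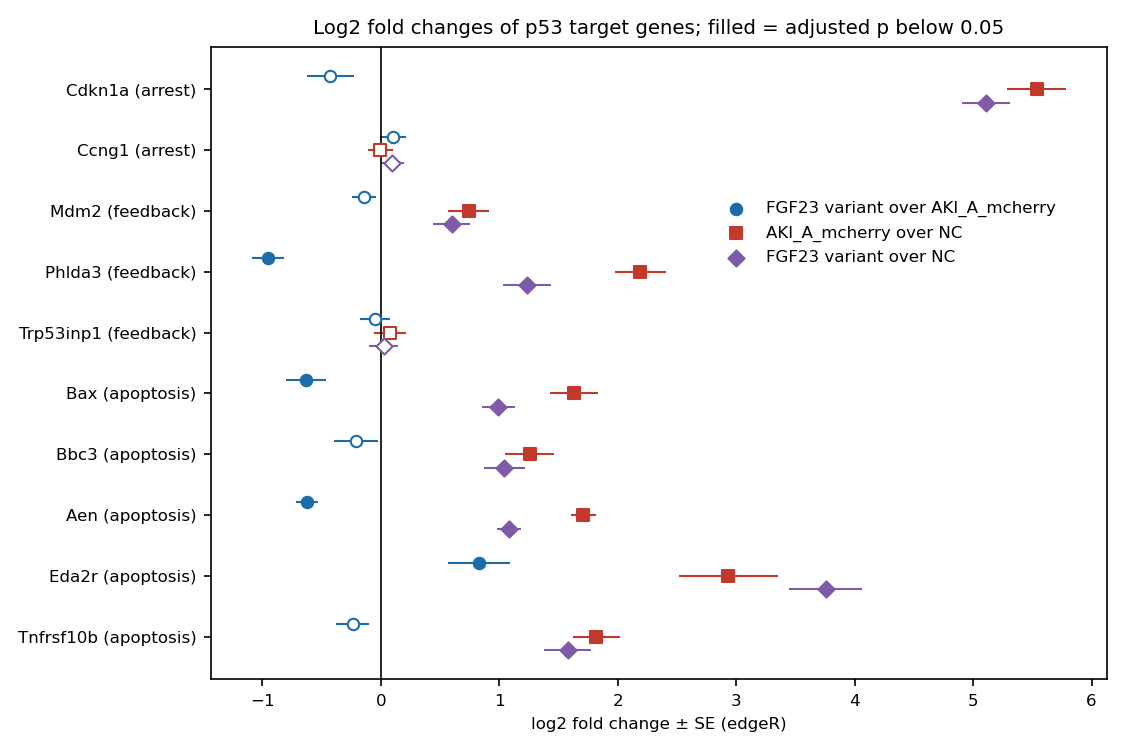
Log2 fold changes with their SE are plotted for the 10 genes, with symbols for the FGF23 variant group over AKI_A_mcherry, AKI_A_mcherry over NC and the FGF23 variant group over NC. Filled symbols have an adjusted p below 0.05: 4, 8 and 8 of the 10 genes, with Cdkn1a farthest from 0 against NC.

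The list counts for this comparison stand against 53.1% of all genes tested that passed in either direction, 27.2% higher and 26.0% lower. Trp53, the gene of p53 itself, averaged 67.9 ± 8.445 CPM in AKI_A_mcherry and 29.2 ± 5.76 CPM in NC (SD, n = 4 each) and rose 2.36-fold (edgeR adjusted p = 7.22e-05). Mdm4, which binds p53 and blocks its activity, fell to 47.1 ± 5.10 CPM in AKI_A_mcherry, against 74.1 ± 16.1 CPM in NC (1.55-fold lower, edgeR adjusted p = 0.00526). Of 15 tested genes of p53 and its controllers, 3 rose and 5 fell, with a median log2 change of -0.16. The checkpoint kinase gene Chek1 was 3.44-fold higher, while the damage kinase gene Atm was 2.75-fold and the p53 kinase gene Hipk2 2.05-fold lower.

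Of 22 further p53 targets, 12 rose and 6 fell in AKI_A_mcherry, with a median log2 change of 0.49. Gdf15, a secreted stress factor, averaged 107 ± 18.2 CPM in AKI_A_mcherry and 8.07 ± 1.34 CPM in NC (SD, n = 4 each), a rise of 13.5-fold, and the stress kinase gene Plk3 rose 11.96-fold. Dcxr, a xylulose reductase gene, fell 4.75-fold and Sesn1, a sestrin gene of the antioxidant and mTOR response, 2.47-fold. Of 8 DNA repair and nucleotide supply targets, 1 rose and 3 fell (median -0.10): the growth arrest gene Gadd45a was 4.29-fold higher, the ribonucleotide reductase gene Rrm2b 2.30-fold lower and the damage recognition gene Xpc 1.80-fold lower. The third gene that fell was Ddb2.

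Among other BCL2 family genes, 3 of 11 tested rose and 1 fell (median log2 change 0.15). Bak1, the partner of Bax in pore formation, rose 3.22-fold, and Bcl2l1, the gene of the survival protein BCL-XL, rose 2.95-fold. Bid, a BH3-only gene, was 1.32-fold lower, a call that ended when library totals alone were used for scaling (edgeR adjusted p = 0.0928). Of 14 other CDK inhibitor and G1 genes, 7 rose and 5 fell (median log2 change 0.62). Ccne1, the cyclin E1 gene, rose 4.51-fold and the inhibitor gene Cdkn2b 3.75-fold, while the inhibitor gene Cdkn2c fell 1.755-fold and the cyclin D1 gene Ccnd1 1.68-fold. Of 10 G2 and M phase genes, 6 rose and 0 fell (median log2 change 0.76), with Cdk1, the mitotic kinase gene, 2.36-fold and the mitotic kinase gene Plk1 2.16-fold higher. Cdk1 stayed low, at 4.94 ± 1.12 CPM in AKI_A_mcherry, against 2.13 ± 0.750 CPM in NC (SD, n = 4 each). The 6 became 3 with all 12 libraries in 1 fit and 2 among genes with a mean of at least 5 CPM, where fewer were tested. All folds here passed edgeR's test with adjusted p below 0.05, against 53.1% of all genes tested that passed in either direction.

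Between the 2 injured groups, the question was whether p53 targets differed with the FGF23 variant. Of the 10 p53 targets, 3 fell (Phlda3, Aen and Bax), against 11.4% of all 18824 genes tested that fell, and 1 rose (Eda2r), against 11.7% that rose; 23.1% passed in either direction. These 4 were also the members whose libraries did not overlap, against 28.4% of all genes tested. The median log2 change of the members was -0.22, against 0.0084 for all genes tested. Cdkn1a, Mdm2, Ccng1, Trp53inp1, Bbc3 and Tnfrsf10b did not pass the test. Scaled by library totals alone, the median of all genes lay at 0.21 and the calls over all genes split into 4060 higher and 1035 lower, against 2199 higher and 2148 lower with TMM factors.

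Phlda3 had 15.3, 15.4, 19.2 and 15.7 CPM in the FGF23 variant group, against the 27.1, 32.7, 39.1 and 28.2 CPM of AKI_A_mcherry. Every variant library was below every AKI_A_mcherry library, with variant replicate 3 the highest of its group. Phlda3 was 1.93-fold lower (log2 -0.95 ± 0.14, SE, edgeR adjusted p = 0.00189). Aen had 44.1, 47.6, 54.7 and 49.6 CPM in the FGF23 variant group, against 77.7, 70.2, 73.1 and 81.6 CPM in AKI_A_mcherry. Its groups were again tight and apart, 1.54-fold lower (log2 -0.62 ± 0.09, SE, edgeR adjusted p = 0.00223). The calls of Phlda3 and Aen held in each of the 19 alternatives, with adjusted p of at most 0.0193 and 0.0394.

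Bax had 64.2, 65.4, 76.2 and 63.9 CPM in the FGF23 variant group, against 78.2, 144, 102 and 94.1 CPM in AKI_A_mcherry. The highest variant library, replicate 3, came within a few CPM of the lowest AKI_A_mcherry library. Bax was 1.55-fold lower (log2 -0.63 ± 0.17, SE, edgeR adjusted p = 0.0237). The call ended without variant replicate 1, 2 or 5 (edgeR adjusted p = 0.0672, 0.0627 and 0.0661) and with library totals alone (0.0601). The log2 change of Bax kept its sign in all 19 alternatives, at -0.75 to -0.41. It was -0.43 without AKI_A_mcherry replicate 2, the highest library (edgeR adjusted p = 0.0280).

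Eda2r had 9.66, 9.10, 9.21 and 9.93 CPM in the FGF23 variant group, against 5.94, 2.54, 5.89 and 7.00 CPM in AKI_A_mcherry. The variant libraries were the tightest of any member in any group, with a coefficient of variation of 4.09%, and all lay above AKI_A_mcherry. Eda2r was 1.77-fold higher (log2 0.83 ± 0.26, SE, edgeR adjusted p = 0.0460), close to the threshold. The call ended without any one variant library (edgeR adjusted p = 0.1004, 0.0866, 0.0730 and 0.102) or without AKI_A_mcherry replicate 1 or 3 (0.0624 and 0.0679). It also ended with no filter on low counts (0.0754) and with all 12 libraries in 1 fit (0.07305). The direction of Eda2r held in all 19 alternatives, with log2 changes of 0.60 to 1.05. The smallest, 0.60, came without AKI_A_mcherry replicate 2, the lowest library (edgeR adjusted p = 0.0164).

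**Figure D3:**
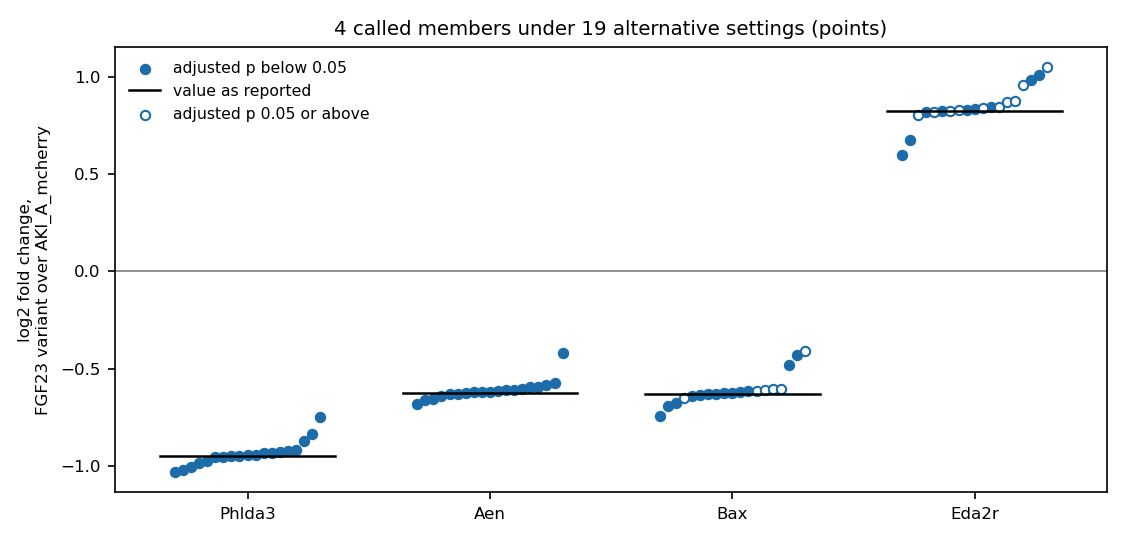
For the 4 members called between the FGF23 variant group and AKI_A_mcherry, each point is the log2 fold change under 1 of 19 alternative settings and the line is the value as reported. Filled points have an adjusted p below 0.05: Phlda3 and Aen are filled throughout, while Bax has 6 and Eda2r 10 open points, all on the same side of 0.

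The other 6 members were not told apart between the injured groups. Cdkn1a had 108.5, 133, 159 and 112.5 CPM in the FGF23 variant group, against 164, 130.4, 246 and 148.5 CPM in AKI_A_mcherry. The groups overlapped, with a log2 difference of -0.43 ± 0.20 (SE, edgeR adjusted p = 0.146), negative in all 19 alternatives and past the threshold in none. Mdm2 had 52.4, 49.0, 53.4 and 54.4 CPM in the FGF23 variant group, against 65.5, 48.6, 57.6 and 58.95 CPM in AKI_A_mcherry (log2 -0.14 ± 0.10, SE, edgeR adjusted p = 0.347). The variant libraries of Mdm2 lay within the range of the AKI_A_mcherry libraries.

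Ccng1 averaged 290.5 ± 27.8 CPM in the FGF23 variant group and 271 ± 29.2 CPM in AKI_A_mcherry (SD, n = 4 each, edgeR adjusted p = 0.527), and Trp53inp1 averaged 46.8 ± 5.95 CPM in the FGF23 variant group and 48.5 ± 6.62 CPM in AKI_A_mcherry (edgeR adjusted p = 0.805). Bbc3 had 6.87, 7.09, 5.56 and 5.45 CPM in the FGF23 variant group, against 5.63, 9.25, 7.43 and 6.69 CPM in AKI_A_mcherry (log2 -0.21 ± 0.18, SE, edgeR adjusted p = 0.434). Tnfrsf10b had 7.00, 7.32, 8.41 and 9.21 CPM in the FGF23 variant group, against 10.1, 8.69, 9.85 and 9.08 CPM in AKI_A_mcherry (log2 -0.24 ± 0.14, SE, edgeR adjusted p = 0.238). The groups overlapped for all 4 of these genes. The direction of Mdm2, Bbc3 and Trp53inp1 turned to higher with library totals alone (log2 0.06, 0.0013 and 0.15). A p that misses the threshold does not show that these levels were alike.

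Around the members, Trp53 averaged 56.8 ± 1.76 CPM in the FGF23 variant group and 67.9 ± 8.445 CPM in AKI_A_mcherry (SD, n = 4 each, edgeR adjusted p = 0.0962). It passed as lower without AKI_A_mcherry replicate 3 (edgeR adjusted p = 0.0221) and in limma-voom with quality weights (0.0455), with 0.0221 to 0.764 over the 19 alternatives. Mdm4 was 1.43-fold higher, at 67.4 ± 7.82 CPM in the FGF23 variant group and 47.1 ± 5.10 CPM in AKI_A_mcherry (edgeR adjusted p = 0.0113). Of 15 tested controllers of p53, 4 rose and 0 fell, against 11.7% of all genes tested that rose and 11.4% that fell. Their median log2 change was 0.12, and Atm (2.55-fold) and Hipk2 (2.50-fold) were among those that rose. Of 22 further targets, 2 rose and 4 fell, against 23.1% of all genes tested that passed in either direction (median -0.10): Sesn1 was 1.85-fold and Ak1, an adenylate kinase gene, 1.70-fold higher, and Sertad1, a regulator of CDK4, was 2.19-fold and Gdf15 2.00-fold lower. Of the 8 DNA repair targets, 0 passed edgeR's test (median 0.04), 2 had an unadjusted p below 0.05, and DESeq2 and limma-voom called 0, while library totals alone gave 2 higher. Of the further targets, DESeq2 called 5 higher and 6 lower, and limma-voom 5 higher and 5 lower.

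Over all genes tested, 11.7% rose and 11.4% fell, which stands beside the list counts in this paragraph. Other BCL2 family genes had 0 higher and 4 lower of 11 tested (median log2 change -0.35). Bcl2l1 fell to 162 ± 23.0 CPM in the FGF23 variant group, against 291 ± 14.3 CPM in AKI_A_mcherry (1.79-fold lower), and Bok, a relative of Bax, was 1.675-fold lower. The other CDK inhibitor and G1 genes had 0 higher and 6 lower of 14 (median -0.34), with Ccne1 2.34-fold and Cdkn2b 1.83-fold lower. The G2 and M phase genes had 0 higher and 3 lower of 10 (median -0.89), with Birc5, the survivin gene, 2.27-fold and Cdk1 2.11-fold lower. Several of these calls ended when 1 library was left out. The log2 changes of Atm, Ccne1, Cdkn2b, Birc5 and Cdk1 kept their sign in every alternative. The BCL2 family count was 2 lower without variant replicate 1 or 5 or AKI_A_mcherry replicate 2, 3 or 4, and also with library totals alone. The G1 count was 3 lower without variant replicate 1, 2 or 5, and 1 higher and 2 lower with library totals alone. The G2 and M count was 0 lower without variant replicate 1 or 2 or AKI_A_mcherry replicate 2, 6 lower without variant replicate 5, and 1 lower among genes with a mean of at least 5 CPM, where fewer were tested. Cdkn2b also lost its call with library totals alone (0.0725), no filter (0.05235) or all 12 libraries in 1 fit (0.0654). Without variant replicate 1 the edgeR adjusted p was 0.0603 for Atm, 0.0507 for Ccne1, 0.0848 for Cdkn2b, 0.0720 for Birc5 and 0.07375 for Cdk1. Without variant replicate 2 it was 0.0586, 0.0537, 0.0729, 0.0679 and 0.05175 for the same genes. Atm also lost its call without variant replicate 5 (0.0786) or AKI_A_mcherry replicate 3 (0.0627). Cdkn2b lost it without variant replicate 5 (0.0867) or AKI_A_mcherry replicate 2 or 3 (0.0619 and 0.0746), Birc5 without AKI_A_mcherry replicate 2 or 3 (0.0592 and 0.0591) and Cdk1 without AKI_A_mcherry replicate 2 or 4 (0.0646 and 0.0551).

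Set against NC, the FGF23 variant group shares NC libraries with the first comparison and variant libraries with the second. Of the 10 p53 targets, 8 rose and 0 fell, against 21.7% of all 19005 genes tested that rose and 20.6% that fell, and the libraries of 8 did not overlap, against 41.6% of all genes tested. The members that did not pass were Ccng1 and Trp53inp1. The median log2 change was 1.06, against 0.011 for all genes tested.

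With values for each group given above, the folds over NC in the FGF23 variant group were 34.5 for Cdkn1a (log2 5.11 ± 0.20, SE, edgeR adjusted p = 1.19e-07) and 13.5 for Eda2r (log2 3.76 ± 0.31, SE, edgeR adjusted p = 7.60e-06). Tnfrsf10b was 2.98-fold, Phlda3 2.35-fold, Aen 2.12-fold, Bbc3 2.06-fold, Bax 1.99-fold and Mdm2 1.51-fold higher, with edgeR adjusted p of 1.86e-05 (Aen) to 0.0104 (Mdm2). Ccng1 differed by 0.10 ± 0.10 and Trp53inp1 by 0.02 ± 0.12 on the log2 scale (SE, edgeR adjusted p = 0.464 and 0.899). Both passed as higher with library totals alone (0.00334 and 0.0380), where the median of all genes lay at 0.34. Leaving out any single library ended none of the 8 calls. Bbc3 and Eda2r, at few CPM, were not in every fit limited to a mean of at least 5 CPM.

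Trp53 exceeded its NC level 1.97-fold in the FGF23 variant group (edgeR adjusted p = 1.56e-04), and Mdm4, at 67.4 ± 7.82 CPM in the FGF23 variant group and 74.1 ± 16.1 CPM in NC, did not pass (0.568). The list counts that follow stand against 42.3% of all genes tested that passed in either direction. Of 15 controllers, 3 rose and 1 fell (median log2 change 0.03), with Chek1 2.52-fold higher and the checkpoint kinase gene Atr 1.275-fold lower; library totals alone gave 11 higher and 0 lower. This count was 2 higher and 0 lower without variant replicate 2 or 3 or NC replicate 2, 3 or 4. Of 22 further targets, 10 rose and 3 fell (median 0.31), with Plk3 10.1-fold and Gdf15 6.73-fold higher and Dcxr 3.205-fold and Sesn1 1.34-fold lower. DNA repair targets had 1 higher and 3 lower of 8 (median -0.09), with Gadd45a 3.59-fold higher and Rrm2b 1.895-fold and Xpc 1.46-fold lower. Other BCL2 family genes had 3 higher and 1 lower of 12 (median 0.04), with Bak1 2.27-fold and Mcl1, a survival gene, 1.715-fold higher and Bid 1.43-fold lower. The other CDK inhibitor and G1 genes had 6 higher and 5 lower of 14 (median 0.30), with Cdkn2b 2.045-fold and Ccne1 1.92-fold higher and Ccnd1 2.07-fold and Ccng2, the cyclin G2 gene, 1.68-fold lower. Of the 10 G2 and M phase genes, 0 passed edgeR's test (median 0.12), 0 had an unadjusted p below 0.05, and DESeq2 and limma-voom called 0, while 1 was lower without variant replicate 3.

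Of these list genes, 4 lost their call when 1 library was left out. Atr had an edgeR adjusted p of 0.121 and 0.123 without variant replicate 2 or 3, and of 0.0854, 0.123 and 0.0851 without NC replicate 2, 3 or 4. Sesn1 had 0.0596 and 0.0574 without variant replicate 3 or 5. Cdkn2b had 0.06175 and 0.0893 without variant replicate 2 or 3, and 0.0757 and 0.08215 without NC replicate 3 or 4. Ccne1 had 0.0606 and 0.0937 without variant replicate 3 or 5, and 0.0624 to 0.0809 without NC replicate 1, 2 or 3. Without a filter on low counts the calls of Atr and Cdkn2b ended (0.0928 and 0.0553). With library totals alone the calls of Atr, Sesn1, Xpc and Bid ended (edgeR adjusted p = 0.928, 0.581, 0.0699 and 0.215).

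Levels between genes are compared on the FPKM scale the authors deposited (fragments scaled by gene length and library size), which corrects for gene length but is scaled by library totals. Ccng1 had the highest level of the 10 members in every group, with 86.4 ± 8.86 FPKM in the FGF23 variant group, 69.9 ± 10.7 FPKM in AKI_A_mcherry and 64.4 ± 4.58 FPKM in NC (SD, n = 4 each). Cdkn1a had rank 3 in both injured groups, at 37.6 ± 6.57 FPKM in the FGF23 variant group and 44.15 ± 14.7 FPKM in AKI_A_mcherry, and rank 8 in NC, at 0.8675 ± 0.209 FPKM. Bax had rank 2 in all 3 groups, at 44.7 ± 3.80, 59.3 ± 12.4 and 17.9 ± 3.82 FPKM in the FGF23 variant group, AKI_A_mcherry and NC.

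In the FGF23 variant group the order by mean FPKM was Ccng1, Bax, Cdkn1a, Phlda3, Mdm2, Aen, Trp53inp1, Bbc3, Eda2r and Tnfrsf10b. The libraries overlapped between the neighbours Bax and Cdkn1a, Phlda3 and Mdm2, Aen and Trp53inp1, and Eda2r and Tnfrsf10b. In AKI_A_mcherry the order was Ccng1, Bax, Cdkn1a, Phlda3, Aen, Mdm2, Trp53inp1, Bbc3, Tnfrsf10b and Eda2r, with overlap between Ccng1 and Bax, Bax and Cdkn1a, Aen and Mdm2, and Mdm2 and Trp53inp1. In NC it was Ccng1, Bax, Trp53inp1, Mdm2, Phlda3, Aen, Bbc3, Cdkn1a, Tnfrsf10b and Eda2r, with overlap between Trp53inp1 and Mdm2, Mdm2 and Phlda3, Phlda3 and Aen, and Bbc3 and Cdkn1a. Eda2r was the lowest member in AKI_A_mcherry (0.8275 ± 0.330 FPKM) and in NC (0.0975 ± 0.0512 FPKM) and had rank 9, at 1.675 ± 0.0843 FPKM, in the FGF23 variant group.

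**Figure D4:**
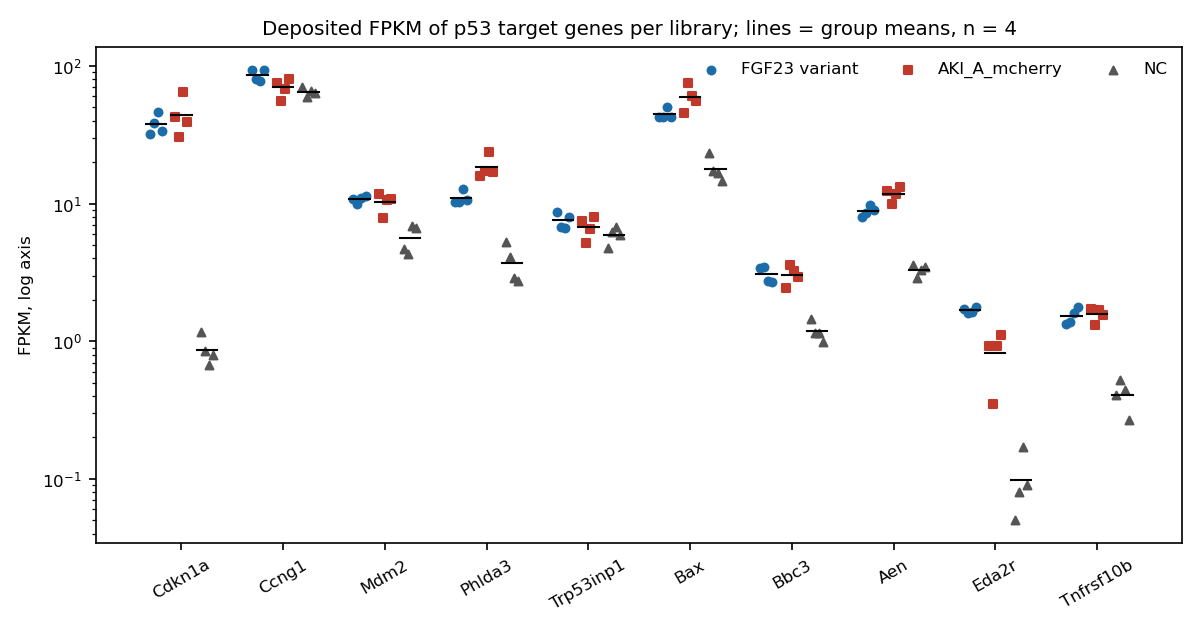
The deposited FPKM of each library is shown on a log axis for the 10 members, with the FGF23 variant group, AKI_A_mcherry and NC side by side and lines at the group means. Ccng1 is the highest in each group, and Cdkn1a moves past Bbc3, Phlda3, Aen, Mdm2 and Trp53inp1 between NC and both injured groups.

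The members also differed in how much libraries of a group varied. The coefficient of variation of CPM was highest for Eda2r in NC, at 50.7%, and in AKI_A_mcherry, at 36.25%, and for Cdkn1a in the FGF23 variant group, at 17.9%. Single libraries stood at the edges for several members at once. Within AKI_A_mcherry, replicate 2 was the lowest of its group for Cdkn1a, Ccng1, Mdm2, Trp53inp1, Aen, Eda2r and Tnfrsf10b and the highest for Bax and Bbc3. Within NC, replicate 1 was the highest for Cdkn1a, Ccng1, Phlda3, Bax, Bbc3 and Aen and the lowest for Trp53inp1 and Eda2r. Within the FGF23 variant group, replicate 3 was the highest for Cdkn1a, Phlda3, Bax and Aen and the lowest for Ccng1 and Trp53inp1. All members were read from the same 12 libraries, so they are not independent of each other.

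For 1 member of each role, the genes most like it were found over the 12 libraries, as those with the smallest root mean square difference in log2(CPM + 1) after each gene was centred on its mean, among 11048 genes with a mean of at least 5 CPM. For Cdkn1a they were Flnc (0.27), Fosl1 (0.36), Atf3 (0.38) and Hspb1 (0.43), in log2 units. Flnc encodes a filamin, Fosl1 and Atf3 transcription factors and Hspb1 a small heat shock protein. For Mdm2 they were Traf3 (0.11), Nol10 (0.12), Tpcn2 (0.13) and Mef2d (0.14), and for Bax they were Rpsa (0.08), Erh (0.08), Rps27a (0.09) and Rpl18 (0.10). Rpsa, Rps27a and Rpl18 encode ribosomal proteins, and such genes have near copies that can share reads. None of these 12 genes is a member. A small difference is a description of 12 libraries in 3 groups that lie far apart.

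Reads could be shared with overlapping genes for 2 members. A gene on the strand opposite to Cdkn1a, AC167363.2, had at most 0.491 CPM, and Gm45808, on the same strand as Bax, at most 0.0595 CPM in any library. The libraries mark strand, and whether counting used it is not given in the sources used here.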

How the data were processed

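PolyA RNA of mouse kidney was sequenced in 12 libraries that mark strand (dUTP), per the labels' protocols. The deposited table gives for each gene a whole-number count and an FPKM value per library. Build GRCm39, fastp, StringTie and edgeR appear, without roles, in the submitters' processing notes. How reads became counts is not given in the sources used here. Among deposited values, counts of 4 (11995) outnumber those of 3 (5847) and 5 (3638), so low counts may not be single reads, and all tests were repeated on counts divided by 4. The authors' FPKM values served only to compare levels between genes. Symbols matched 31942 of 32047 gene IDs.

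Counts were tested in edgeR 4.0.16 (R 4.3.3; filterByExpr, TMM factors, quasi-likelihood F test, Benjamini-Hochberg over all genes tested, threshold 0.05) on the 8 libraries of each comparison. CPM used TMM factors over 12 libraries (1.12 to 1.16 for FGF23 variant libraries, 0.903 to 1.02 for AKI_A_mcherry, 0.879 to 0.911 for NC). Members and gene lists were chosen with earlier results of these data known. From each list, the 2 genes with the largest passing change in each direction are named, apart from Trp53 and Mdm4, which are always given. Ddb2 was named after its value was seen. Alternatives were other factors, filters, DESeq2 1.42.0, limma 3.58.1 voom, a joint fit, a replicate block and leaving out each library. Counts were simulated for the FGF23 variant group over AKI_A_mcherry with 200 of 18824 genes changed, drawn from genes above a floor of expected counts. Of these, 23.9% of 67 genes changed 1.5-fold, 52.2% of 67 changed 2-fold and 90.9% of 66 changed 4-fold were recovered. In the data 4347 genes were called, so these shares are not the power of the tests above.

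No 2 libraries were copies (chi-square over degrees of freedom 34.1 to 148). Of 10 pairs of same-numbered libraries, 2 had deviations from their group means correlated with r over 0.1, so the numbers were not used as pairs. Both joined an FGF23 variant and an AKI_A_mcherry library, with r of 0.12 for replicate 1 and 0.19 for replicate 3. Replicate 2 of these groups had 0.082. Variant replicate 5 and AKI_A_mcherry replicate 4, of unlike number, had 0.28.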

Additional observations from a re-analysis of the deposited data

Results flagged for a closer look

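In 30 groups of 4 libraries (10 members in 3 groups), 2 held a library far from the others by Dixon's test at the 95% level, which chance gives in about 1 group in 20. Both were replicate 3 of the FGF23 variant group. Phlda3 was 19.2 CPM there, against 15.3 to 15.7 CPM in the other libraries of that group. Bax was 76.2 CPM there, against 63.9 to 65.4 CPM in the others. The library that stood apart lay nearest to AKI_A_mcherry for both genes. Without it the log2 change of the FGF23 variant group over AKI_A_mcherry was -1.03 for Phlda3 (edgeR adjusted p = 0.00253) and -0.69 for Bax (0.02985).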

How the results depend on the processing

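Between the FGF23 variant group and AKI_A_mcherry, 4347 genes and 4 members were called. The replicate block, which keeps replicates 1 to 3, left 1710 genes and 2 members, and the same libraries without the block (added after seeing the data) left 1688 and 2. Leaving out 1 library gave 2410 to 4259 genes and 2 to 4 members. The count was 2410, 2853 and 2718 genes, with 2 members each, without variant replicate 1, 2 or 5. With the block the call of Bax ended (edgeR adjusted p = 0.0881), as did that of Eda2r (0.0720). In the FGF23 variant group over NC, 8035 genes were called, 4715 with the block and 6334 in the same libraries without it, and 6977 to 8048 with 1 library left out. In AKI_A_mcherry over NC, 9947 were called, and 8916 to 9726 with 1 library left out. All 8 members called against NC stayed called in both comparisons with any 1 library left out.

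With library totals alone the median of all genes lay at 0.12 for AKI_A_mcherry over NC (5828 higher, 3958 lower) and 0.34 for the FGF23 variant group over NC (7829 higher, 2096 lower), where all 10 members were called. With a mean of at least 5 CPM, 6 and 7 members were called in these comparisons, because fewer were tested. Changes of sign touched members and a regulator that had not passed. For the FGF23 variant group over AKI_A_mcherry, library totals gave 0.061 for Mdm2, 0.15 for Trp53inp1 and 0.0013 for Bbc3, and leaving out 1 library gave -0.12 to 0.020 for Trp53inp1 (positive without variant replicate 3, 0.0062, or AKI_A_mcherry replicate 4). For AKI_A_mcherry over NC, Ccng1 was 0.13 with library totals, 0.097 with limma-voom and -0.060 to 0.052 with 1 library left out (positive without AKI_A_mcherry replicate 2 or 3 or NC replicate 1 or 3), and Trp53inp1 was -0.016 to 0.15 with 1 library left out (negative without NC replicate 1). For the FGF23 variant group over NC, Trp53inp1 was -0.034 with limma-voom and -0.071 to 0.089 with 1 library left out (negative without variant replicate 1 or 5 or NC replicate 1). Mdm4 was 0.21 with library totals and -0.23 to 0.024 with 1 library left out (positive without NC replicate 3). The causes were not tested. Depth limits the NC level of Eda2r most, at 20 to 74 counts a library.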
